A study of Mus musculus with 8 samples.

Results

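The serine and leucine transfer RNAs (tRNAs) of mouse sperm small RNA libraries are described here. The members are the rows of the deposited count table in the class structural_RNA whose names start with tRNA-Ser or tRNA-Leu. The table holds 75 such rows among 1010917 rows in all. Rows with identical counts in all 8 libraries were counted once, which left 64 distinct rows, 22 of serine and 42 of leucine tRNA, under 13 names. The rule used names alone and no measured difference. The libraries came from spermatozoa of C57BL/6J mice, 4 labelled Control-Cessation and 4 labelled EtOH-Cessation, called control and EtOH below. Both groups thus carry the label cessation, and the series title speaks of a month of cessation. The labels give no dose, route, age or length of treatment and do not say whether a library is 1 animal or a pool, so each p-value reflects only how far these libraries spread, which may be technical. The labels call the samples mature sperm, whereas the design text of the series names the caput portion of the epididymis.

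A tRNA carries 1 amino acid to the ribosome and reads its codon through the anticodon. Cytosolic serine and leucine tRNAs, with the selenocysteine tRNA, form class II, whose variable arm between the anticodon and T arms is a long stem instead of a short loop. Seryl-tRNA synthetase recognises that arm and not the anticodon, which differs between serine tRNAs of the TCN and AGY codons. In sperm, tRNAs are found largely as fragments, often from the 5′ end, whose amounts change while sperm pass through the epididymis. Whether a counted read came from a whole tRNA or from a fragment cannot be told from a count per row.

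The counts of the table summed to between 4210785 and 4768713 per control library and between 3116421 and 6805989 per EtOH library. Values in single libraries are counts scaled to the library total (CPM, 1e6 times the count over the total). Exon rows of 7 of 7 sperm and late spermatid genes summed to 377 to 455 CPM in controls. In the EtOH libraries they summed to 232 to 331, without overlap. Gene by gene, Prm1, Odf1 and Smcp did not overlap between the groups, whereas Prm2, Tnp1, Tnp2 and Akap4 did. The 9 epididymal genes summed to 382 to 733 CPM in controls and to 2879, 20272, 758 and 1361 in EtOH replicates 1 to 4. EtOH replicate 2, the shallowest library, stood apart, and 30.5% of its counts were on exons against 7.07 to 10.4% elsewhere. Crisp1, Adam7, Cd52 and Clu made up nearly all of that sum. The segment genes Lcn5, Lcn8, Lcn9, Defb41 and Spag11b were at 0 or near 0 in every library, the highest value among them being 2.28 CPM. Leukocyte, Sertoli and smooth muscle genes summed to at most 19.6, 16.7 and 96.4 CPM in any library. Red blood cell genes summed to 15.6 to 32.5 CPM in controls and 1.62 to 17.7 in the EtOH libraries.

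The letters in a row name are a codon. All 13 serine and leucine names fit their amino acid when read as a codon of the standard code, and 0 fit as an anticodon. Serine tRNAs appear under TCY, TCA and TCG and, from the other serine codon box, AGY, where Y stands for C or T. Leucine tRNAs appear under CTY, CTA and CTG and under TTA and TTG. A trailing low line (tRNA-Leu-CTA_, tRNA-Ser-TCA_) and the mark (m) (tRNA-Ser-TCA(m), tRNA-Leu-TTA(m)) make separate names. The table does not explain either mark. As background, mitochondrial serine and leucine tRNAs of animals lack the long arm. The rows with (m) are described by name below, but they stay in all counts, medians, sums and shares of the set. The arm itself was not checked on any row.

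Some copies under a name carried nearly the same counts, and others differed widely. RefSeq names (assembly GRCm38.p6) list 8 mouse serine tRNA genes whose anticodon pairs with AGY, and 9 distinct AGY rows had a mean count of 10 or more. For CTG the numbers were 10 genes and 8 rows, and for TCG 3 and 3. Of the 45 distinct rows with a mean count of 10 or more, 21 lay in 6 sets whose members differed by at most 5% in every library. The largest were 6 rows of Leu-CTG and 5 of Ser-AGY. The other 24 rows were in no set, and tRNA-Ser-AGY_copy6, for example, averaged 21.9 CPM over the 8 libraries against 1526 for tRNA-Ser-AGY_copy12. In 2 of the sets the rows had different names. One paired tRNA-Leu-CTY_copy7 with tRNA-Leu-CTA__copy1, at 1.02 to 1.04 times its counts in the 8 libraries. The other joined tRNA-Ser-TCY_copy5 to both tRNA-Ser-TCA_ rows. Rows within such a set are not separate measurements, and a sum over copies may count a read more than once. The table gives no rule for reads that match several copies. The other 19 distinct rows had mean counts of at most 8.38. Of the 11 rows not counted again, 8 had higher counts and repeated another row exactly, and 3 were low rows whose few counts coincided.

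As single rows, the most abundant leucine and serine rows each stood well above the other rows of their amino acid. Sums over the distinct rows of a name, which may count a read more than once, gave another order. In controls Ser-AGY summed to 10865 ± 2206 CPM and Ser-TCA to 5560 ± 1111 (SD, n = 4 each). Leu-CTY summed to 10139 ± 1201 CPM and Leu-TTA to 7943 ± 1790 (SD, n = 4 each). Row lengths are not in the table, so levels are per row and not per length. tRNA-Leu-TTA_copy2 had 8134, 9605, 6355 and 5830.3 CPM in control replicates 1 to 4 and 6621, 3411, 7449.9 and 4848 in EtOH replicates 1 to 4. It held 94.0% of the counts of its name, and the next row of that name averaged 416 CPM. The groups overlapped, with EtOH replicate 2 lowest and control replicate 2 highest. tRNA-Ser-TCA_copy1, the sole row of its name, had 6183, 6733, 5066 and 4258 CPM in controls and 4367, 2268, 4876 and 3311 in the EtOH libraries. Again EtOH replicate 2 was lowest, and EtOH replicates 1 and 3 lay above control replicate 4. The third row by level, tRNA-Leu-CTY_copy2, had a mean of 2026 CPM over the 8 libraries, against 6532 and 4633 for the first and second. The leading rows of Ser-TCY and Ser-TCG had control means of 864 ± 139 and 823 ± 119 CPM (SD, n = 4 each). Within a library the Ser-TCY row was the higher in all but control replicate 3, and their difference was not tested. The leading row of Ser-TCA_ is a near-copy of the Ser-TCY row. The names with (m) had 472 ± 153 CPM for Ser-TCA(m) and 152 ± 42.7 for Leu-TTA(m) in controls, beside 442 ± 72.9 for the leading Leu-CTG row (SD, n = 4 each). Leu-TTA(m) was the lowest of the 13. The Ser-TCA(m) row was above the leading Leu-CTG row in control replicates 1 and 2 and below it in control replicates 3 and 4.

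**Figure D1:**
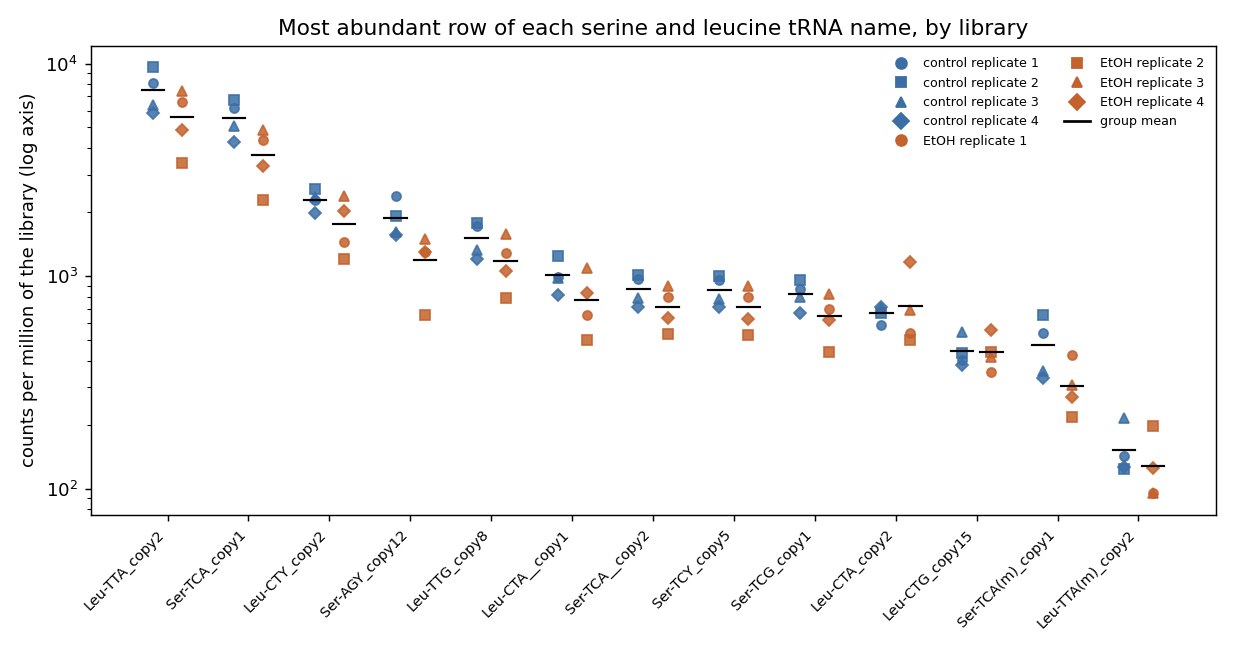
CPM (log axis) for the most abundant row of each of the 13 serine and leucine tRNA names, with 1 point per library and black lines at the group means. The Ser-AGY points of the EtOH libraries lie below all 4 control points, whereas the groups overlap for the other 12 names.

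Serine tRNA rows had lower values in the EtOH libraries, and most clearly those that read AGY, but none passed the adjusted test. tRNA-Ser-AGY_copy12 had 2373, 1917, 1617 and 1555 CPM in controls and 1301, 655, 1491 and 1297 in the EtOH libraries. Every EtOH library lay below every control. EtOH replicate 2 was the lowest and control replicate 1 the highest. The means were 1866 ± 373 and 1186 ± 365 CPM (SD, n = 4 each). The log2 fold change of EtOH over control was -0.87 (SE 0.38, edgeR quasi-likelihood test, adjusted p = 0.163 over all 10234 features tested). The 5 near-identical AGY rows all had a fitted value of -0.88 to 2 decimals. A low AGY row outside that set, tRNA-Ser-AGY_copy2, had 8.26, 7.36, 6.68 and 5.03 CPM in controls and 3.91, 2.89, 4.85 and 4.56 in the EtOH libraries, again without overlap (log2 fold change -0.96, SE 0.38, edgeR adjusted p = 0.13). Its counts were 9 to 36 per library. Not every AGY row shared this, since tRNA-Ser-AGY_copy6 had 24.1 ± 4.48 and 19.8 ± 4.18 CPM (SD, n = 4 each), with EtOH replicate 3 among the controls.

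In the leading rows of the TCN serine names, and in Ser-TCA(m), the groups overlapped. tRNA-Ser-TCA_copy1 had means of 5560.1 ± 1111 and 3706 ± 1159 CPM (SD, n = 4 each; log2 fold change -0.81, SE 0.38, edgeR adjusted p = 0.185). The 3 Ser-TCG rows were fitted between -0.70 and -0.58. tRNA-Ser-TCG_copy1 had 869.7, 954, 795 and 673 CPM in controls and 699, 439.9, 824 and 621 in the EtOH libraries, where replicate 3 lay above 2 of the controls and replicate 1 above 1 of them. The Ser-TCY and Ser-TCA_ rows of higher counts were fitted at -0.51, and tRNA-Ser-TCY_copy5 had 963, 1000.3, 781 and 712 CPM in controls and 797, 530.4, 898 and 629 in the EtOH libraries. Of these, EtOH replicates 1 and 3 lay within the controls and EtOH replicates 2 and 4 below them. tRNA-Ser-TCA(m)_copy1, with 2 exact copies, had 541, 655, 359 and 332 CPM in controls and 426, 217, 308 and 270.3 in the EtOH libraries (log2 fold change -0.86, SE 0.39, edgeR adjusted p = 0.175). Control replicates 1 and 2 were the highest, and EtOH replicate 1 lay above control replicates 3 and 4.

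Leucine rows ranged from lower values to no visible difference between the groups. tRNA-Leu-TTA_copy2 had 7481 ± 1725 and 5582 ± 1809 CPM (SD, n = 4 each; log2 fold change -0.65, SE 0.38, edgeR adjusted p = 0.293). tRNA-Leu-CTY_copy2 had 2271, 2555, 2359 and 1969 CPM in controls and 1452, 1202, 2369 and 2027 in the EtOH libraries. EtOH replicates 1 and 2 lay below all controls, and EtOH replicates 3 and 4 among them (log2 fold change -0.60, SE 0.36, edgeR adjusted p = 0.306). Its near-copies tRNA-Leu-CTY_copy5 and tRNA-Leu-CTY_copy6 had the same fitted value to 2 decimals. tRNA-Leu-CTA__copy1 had 1006 ± 177 and 771 ± 255 CPM, and tRNA-Leu-TTG_copy8 1503 ± 282 and 1178 ± 337 (SD, n = 4 each; edgeR adjusted p = 0.314 and 0.326). tRNA-Leu-TTA(m)_copy2 had 142, 123, 215 and 127 CPM in controls and 95.1, 196, 95.8 and 125 in the EtOH libraries. Here EtOH replicate 2 was the highest of its group, unlike in the rows above.

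For tRNA-Leu-CTG_copy15 and tRNA-Leu-CTA_copy2, CPM values were not lower in the EtOH libraries as a group. tRNA-Leu-CTG_copy15 had 403, 436, 546 and 382 CPM in controls and 352, 437, 414 and 557 in the EtOH libraries, means of 442 ± 72.9 and 440.3 ± 85.8 (SD, n = 4 each). The log2 fold change was -0.24 (SE 0.34, edgeR adjusted p = 0.732), and it turned to 0.051 when library size alone set the scale. tRNA-Leu-CTA_copy2 had 586, 673, 709.6 and 718 CPM in controls and 539, 499, 689 and 1164 in the EtOH libraries, with EtOH replicate 4 above all other libraries (log2 fold change -0.10, SE 0.38, edgeR adjusted p = 0.906). On library size alone its value was 0.15.

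**Figure D2:**
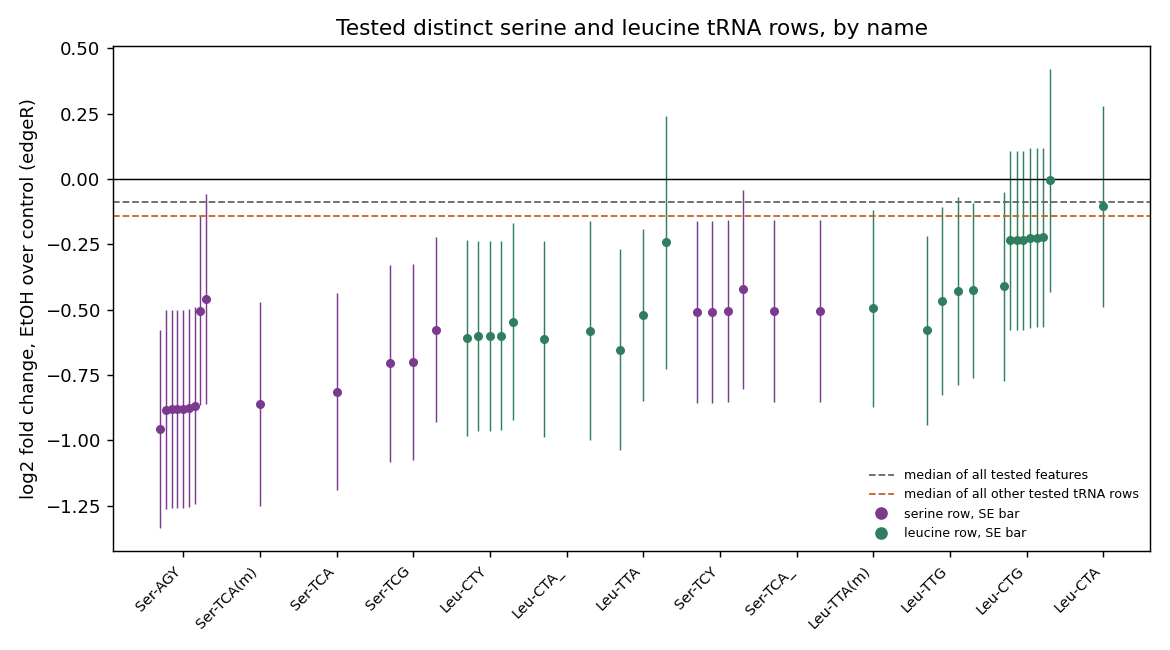
Log2 fold change of EtOH over control, with standard errors, for the 44 tested distinct rows grouped by name, serine in purple and leucine in green, beside the medians of all tested features (-0.09) and of all other tested tRNA rows (-0.14). Ser-AGY rows reach -0.96, and tRNA-Leu-CTG_copy11 (-0.0051) and tRNA-Leu-CTA_copy2 (-0.10) lie nearest to 0.

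Over the set, 44 of the 64 distinct rows passed the filter on low counts, and 0 were past the threshold. The edgeR test called 0.137% of all features lower and 0.0489% higher in the EtOH libraries. At an unadjusted p below 0.05, 8 of the 44 were lower and 0 higher, where 9.15% of all features were lower and 17.9% higher. The 8 were 7 rows of Ser-AGY, 5 of them near-copies of each other, and tRNA-Ser-TCA(m)_copy1. DESeq2 and limma voom likewise called 0 of the 44 with adjusted p, against 3.95% and 2.34% of all features lower and 13.1% and 4.06% higher. At an unadjusted p below 0.05 they had 9 (all serine) and 12 (8 serine, 4 leucine) rows lower, against 9.08% and 11.2% of all features, and 0 higher, against 19.9% and 16.1%. In 7 of the 44 rows, all Ser-AGY, the groups did not overlap and the EtOH values were lower, against 4.08% of all features. In 0 rows were they higher without overlap, against 12.4%. The 7 were the 5 near-copies, the low tRNA-Ser-AGY_copy2 and tRNA-Ser-AGY_copy12. The last lay just past the 5% limit, with control and EtOH means of 1866 and 1186 CPM against 1792 and 1130 for tRNA-Ser-AGY_copy13. The 7 rows are thus not 7 separate measurements. On TMM-scaled CPM tRNA-Leu-TTA_copy12 joined them, giving 8 lower (7.81% of all features) and 0 higher (7.34%). On the library scale the count was 7 without EtOH replicate 2 as well (5.87% of all features). The edgeR count of 8 at an unadjusted p below 0.05 moved with single libraries. It was 1 without EtOH replicate 2 (9% of all features), 2 without control replicate 4 (8.21%), 13 without EtOH replicate 3 (10.5%) and 7 without EtOH replicate 4 (7.7%). Leaving out EtOH replicate 1, or any of control replicates 1 to 3, gave 0, where 4.43% to 5.61% of all features were lower. The count also depended on the scale and the filter. TMM factors were 0.85 to 0.958 in controls and higher in every EtOH library, up to 1.33. With library size alone the count was 0 (4.36% of all features), and with median-of-ratios factors 7 (7.58%). A fit of tRNA rows alone gave 0 (0.423% of tRNA rows). Without a filter the count was 1 (1.34% of features), and with a mean count of at least 10 it was 9 (8.6%).

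All 44 tested rows had fitted values below 0, as did 55.2% of all features. Their median log2 fold change was -0.51, -0.70 for the 20 serine and -0.45 for the 24 leucine rows, beside -0.09 for all features. Of those, 4600 are exon rows with a median of 0.70. Other tRNA rows had a median of -0.14, structural RNA other than tRNA -0.40 (82 of 239 rows lower at an unadjusted p below 0.05) and miRNA rows -1.56. The number below 0 depends on the scale. Library size alone moved the median of all features by 0.27, and 35 of 44 rows were then below 0. Relative to the median of all features, the serine median was -0.62 and on library size alone -0.62, and the leucine median -0.36 and -0.33. A change of scale moves all fitted values by nearly the same amount, so these differences cannot test the scale. A fit of tRNA rows alone gave -0.47 and -0.21 relative to the median tRNA row. With the distinct rows of each name summed, 0 of 13 names passed (0.173% of features did). Ser-AGY (-0.87, SE 0.38) and Ser-TCA (-0.81, SE 0.38) had an unadjusted edgeR p of 0.0374 and 0.0499 (adjusted p = 0.158 and 0.184), and 9.23% of features were lower at that level.

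The EtOH libraries carry identifiers of 2 forms. EtOH replicates 1 and 2 have ones that start with PO_M and EtOH replicates 3 and 4 ones that start with PO_EM, forms that the labels do not explain. Against all 4 controls, the PO_M pair gave a median of -0.95 with 46 of 46 tested rows below 0. The PO_EM pair gave -0.22 with 35 of 47 below 0, where the medians of all features were -0.21 and 0.11. At an unadjusted p below 0.05, 18 and 0 rows were lower, against 10.1% and 6.73% of all features. The PO_M pair holds EtOH replicate 2. The pairs share the controls, and the difference between them was not tested. Single values did not follow the identifier forms throughout, since tRNA-Leu-TTA_copy2 and the serine sum were lower in EtOH replicate 4 than in EtOH replicate 1. In total, the distinct serine rows summed to 27466, 25539.9, 20520.2 and 18774 CPM in controls and 17816, 9742, 20048 and 15624 in the EtOH libraries. The leucine rows summed to 26162, 30566, 25422 and 21482 CPM in controls, against 19409, 14756, 26755 and 22323 in EtOH replicates 1 to 4. EtOH replicate 2 had the lowest sum of both and the highest sum of the epididymal genes given above. The sum of the sperm genes, though not each gene, was lower in every EtOH library than in every control. The part of either in the result was not tested. Without EtOH replicate 2 the difference of the mean log2 sums over both amino acids was -0.26, against -0.45 with it. In bulk libraries, fewer sperm and less of an RNA per sperm cannot be told apart.

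Ratios between rows of the same library do not depend on scaling. The counts of tRNA-Ser-TCA_copy1 were 0.760, 0.701, 0.797 and 0.730 times those of tRNA-Leu-TTA_copy2 in the controls and 0.660, 0.665, 0.655 and 0.683 times in the EtOH libraries. All 4 EtOH ratios lay below all control ratios and within a narrow span, including EtOH replicate 2. The means were 0.747 ± 0.0412 and 0.666 ± 0.0124 (SD, n = 4 each). Of 12 leading rows set against tRNA-Leu-TTA_copy2 this was the sole one without overlap. Of all 12535 rows with a mean count of 10 or more, 0.925% had such a lower ratio and 14.9% a higher one. The ratio was described after the values were seen. For tRNA-Ser-AGY_copy12 the ratios were 0.292, 0.200, 0.255 and 0.267 in controls and 0.196, 0.192, 0.200 and 0.267 in the EtOH libraries. Here control replicate 2 lay with EtOH replicates 1 to 3, and EtOH replicate 4 with the other controls. The ratio of tRNA-Leu-CTG_copy15 ran from 0.0454 to 0.0860 in controls and was 0.0532, 0.128, 0.0556 and 0.115 in the EtOH libraries. EtOH replicates 2 and 4 were above all controls and EtOH replicates 1 and 3 within them. tRNA-Leu-CTA_copy2 showed the same split, with 0.0814, 0.146, 0.0925 and 0.240 in the EtOH libraries and 0.0701 to 0.123 in controls.

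**Figure D3:**
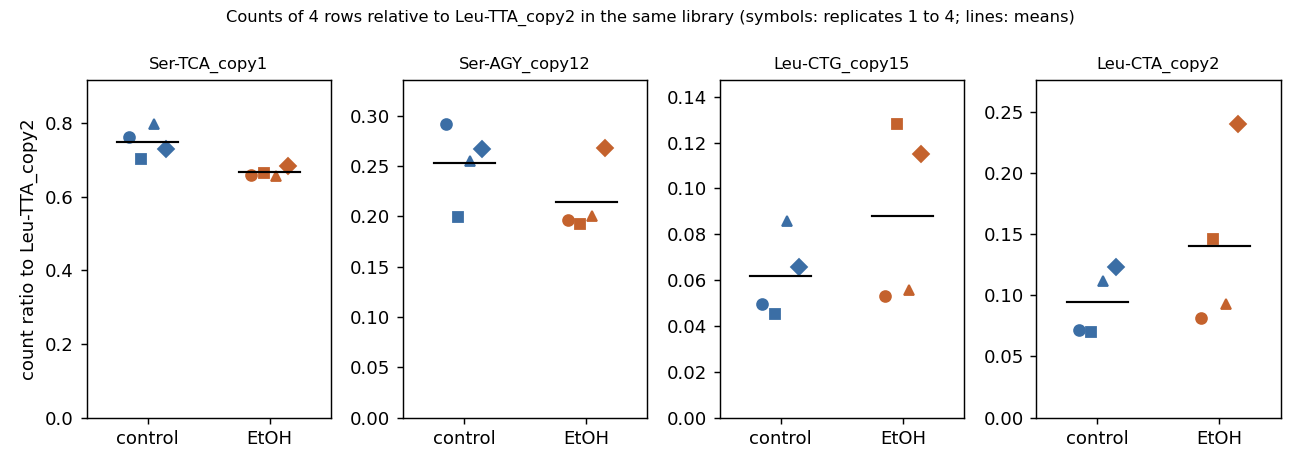
Count of 4 rows divided by the count of tRNA-Leu-TTA_copy2 in the same library, by group, each panel from 0, with 1 symbol per library and lines at the means. The Ser-TCA_copy1 ratio lies between 0.655 and 0.683 in the EtOH libraries, below the lowest control at 0.701, and the other 3 rows overlap.

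Serine and leucine rows stood toward the lower end of the tRNAs without being the lowest. Distinct serine and leucine rows held 18.1 ± 3.28% of all tRNA counts in controls and 13.2 ± 5.51% in the EtOH group (SD, n = 4 each), with 12.9, 10.2, 21.0 and 8.59% in EtOH replicates 1 to 4. The denominator moved as well. All other tRNA rows summed to 197183 to 254933 CPM in controls and to 250375, 216629, 176219 and 403703 in EtOH replicates 1 to 4, and aspartate tRNA was 32.4% of tRNA counts in EtOH replicate 2. EtOH replicate 4 thus had the lowest share together with the highest level of other tRNAs. EtOH replicate 3 lay within the controls (15.3% to 21.4%). These shares may count a read more than once, both in the serine and leucine rows and in all tRNA counts. With 1 row per near-identical serine and leucine set over the same denominator, they were 11.6 ± 2.28% in controls and 8.50 ± 3.75% in the EtOH group (SD, n = 4 each). EtOH replicate 3, at 13.8%, then lay just above the controls (9.64% to 13.6%). Of 21 tRNA kinds by median fitted value, serine was the third and leucine the sixth from the lowest. Tryptophan (-0.75, 7 rows) and proline (-0.70, 17 rows), which have short variable loops, lay below serine. Aspartate was highest, at 1.43. Of the 335 other tested tRNA rows, 220 were below 0. The selenocysteine tRNA, the remaining class II tRNA, has 1 row with 8404, 9776, 7333 and 6397 CPM in controls and 5312, 4691, 7434 and 7778 in the EtOH libraries. Its groups overlapped, and its fitted value of -0.57 lay between the serine and leucine medians. Whether these amino acids differ from each other in their change was not tested.

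**Figure D4:**
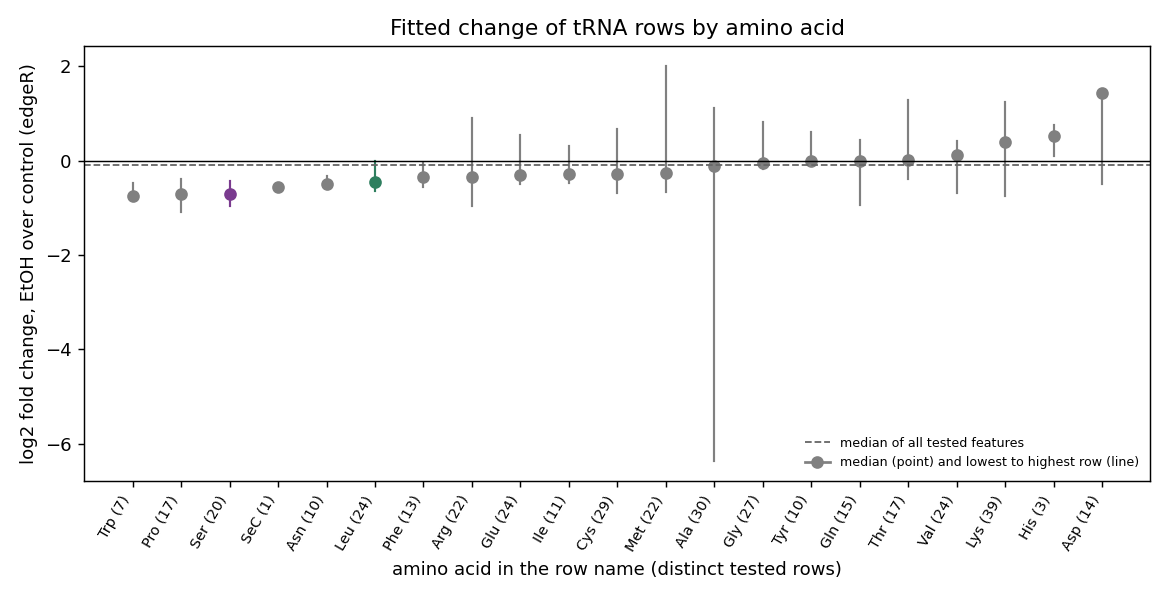
Median (point) and lowest to highest (line) log2 fold change of EtOH over control for the distinct tested tRNA rows of each amino acid, ordered by median, with the number of rows in brackets. Serine (-0.70) is the third from the lowest and leucine (-0.45) the sixth.

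Counts on exons of genes whose proteins act in tRNA charging, modification, processing, export or cleavage were low. The list held 52 gene symbols for charging, modification, maturation, export, and cleavage with its inhibitor. It was not limited to genes that act on serine and leucine tRNAs. Of the 46 with an exon row, 14 had a mean count of 10 or more over the gene, and 1 exon row was deep enough to be tested. That row, an exon of Rpp38, which encodes a subunit of the tRNA-processing enzyme RNase P, was not called by edgeR (log2 fold change 0.51, SE 0.56, adjusted p = 0.625, where 0.186% of features passed). DESeq2 and limma voom did not call it either, where 17.1% and 6.40% of features passed, and its unadjusted edgeR p was 0.381. Among exon rows alone 36.8% were higher at an unadjusted p below 0.05. Summed over exons, 7 of the 14 genes (Nsun2, Rnaset2a, Rnaset2b, Sars, Ssb, Thumpd1 and Xpot) had EtOH values above all controls, against 27.7% of all 7514 genes at that depth. In 0 of the 14 were they below all controls, against 1.05%. Rnaset2a and Rnaset2b are near copies whose reads may be shared. Sars, the cytosolic seryl-tRNA synthetase, had 2.07, 2.85, 1.84 and 2.73 CPM in controls and 12.5, 61.0, 3.97 and 8.24 in the EtOH libraries. Lars, the cytosolic leucyl-tRNA synthetase, had 0.918, 2.14, 1.61 and 1.47 CPM in controls, against 5.11, 22.5, 1.76 and 5.44 in EtOH replicates 1 to 4, with EtOH replicate 3 among the controls. Nsun2, a tRNA cytosine methyltransferase, had 2.30, 2.85, 1.61 and 1.47 CPM in controls, against 4.36, 21.8, 3.82 and 5.44 in EtOH replicates 1 to 4. Sars2 and Lars2, the mitochondrial synthetases, stayed at or under 5.45 CPM in every library. EtOH replicate 2 was the highest library for 38 of the 46 genes, as it was for the epididymal genes, and the part of those in this pattern was not tested.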

How the data were processed

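Small RNA was sequenced in 8 sperm libraries, 4 per group. The treatment label gave each group, and each table column was assigned to the sample whose title holds its name. Guanidinium thiocyanate with a phosphine reductant was used for extraction and only read 1 was kept, per the labels. The submitters' processing notes name cutadapt without saying how it was run. The deposited values are raw counts per annotated feature, and the annotation, aligner, build and handling of multiply matching reads were not given in the sources used here. No coordinates are printed. The members and lists were chosen with earlier results of these data known.

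filterByExpr (minimum count 10, minimum total 15) kept 10234 features. They were tested in edgeR 4.0.16 (R 4.3.3) with TMM factors and the quasi-likelihood test, EtOH over control. Adjusted p-values are Benjamini-Hochberg values over every feature, called at 0.05, and no p was adjusted over the members alone. Alternatives used DESeq2 1.42.0, limma 3.58.1 voom with quality weights, other scalings and filters, and libraries left out. The named rows were the most abundant row of each name, the 5 most abundant of all, up to 4 per direction with the lowest p and, in the gene list, the lowest-p exon rows and the synthetases. Other named rows, genes and the ratios were chosen after their values were seen. The fit was tested on simulated counts.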

Additional observations from a re-analysis of the deposited data

How the results depend on the processing

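No serine or leucine tRNA row and no name sum passed the adjusted threshold in any of the alternatives run. The number of all features past the threshold, 19 as reported, was 9 with median-of-ratios factors and with library size alone, 1747 with DESeq2, 655 with limma voom, 1642 with no filter, 11 with a mean count of at least 10, 2572 with the PO_M libraries alone, and 3 to 2332 with each library left out. The exon rows of the gene list went from 0 to 1 with no filter, with the PO_M libraries alone and without EtOH replicate 3, hence 0 to 1 over the libraries left out. The row was an exon of Sars, named after its values were seen (log2 fold change 2.85 with no filter). The cause was not tested.

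Of the named rows, tRNA-Leu-CTA_copy2 turned to 0.15 with library size alone, 0.19 in the fit of tRNA rows alone, 0.00388 with no filter, 0.18 and 0.054 without EtOH replicates 1 and 2 and 0.40 with the PO_EM libraries alone. Over the libraries left out it ran from -0.45 to 0.18, the lowest without EtOH replicate 4. tRNA-Leu-CTG_copy15 turned to 0.051, 0.12, 0.044 and 0.085 with library size alone, in the fit of tRNA rows, without EtOH replicate 1 and with the PO_EM libraries, and ran from -0.38 to 0.044 over the libraries left out. The other serine and leucine rows that were named by level or lowest p kept values below 0 in all 18 alternatives run. Among them, tRNA-Ser-AGY_copy12 ranged from -1.32 to -0.47 (edgeR, DESeq2 or limma adjusted p from 0.0783 to 0.65). tRNA-Leu-CTG_copy11, named after its value was seen, was above 0 with DESeq2 (0.095) and with limma voom (0.0073). With scaled CPM, 8 rows did not overlap, against 7 (chosen after seeing the data). No paired analysis was possible because the replicate numbers follow accession order and pair nothing.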
